A study of Mus musculus with 6 samples.

Results

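RNA of bone marrow neutrophils was examined for the enzymes and chaperones that modify collagen chains while these are still in the endoplasmic reticulum (ER). They are the collagen galactosyltransferases Colgalt1 and Colgalt2, the lysyl hydroxylases Plod1, Plod2 and Plod3, the prolyl 4-hydroxylase subunits P4ha1, P4ha2 and P4hb, the collagen chaperone Serpinh1 and the prolyl 3-hydroxylation cofactor Crtap. These 10 genes, of 52636 genes listed, were taken by their symbols. The set was chosen on the TPM of Colgalt1, which was higher in the LRP5-KO libraries, so the values of Colgalt1 are given as a description without a test, while the other members entered through their function. Of the 10 members, 5 averaged 1 TPM or more over the 6 libraries and so entered the test. TPM is a share of all transcripts corrected for transcript length, so that levels of different genes can be set side by side.

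The study asked how the lipoprotein receptor-related protein LRP5, a cell surface receptor also known as a coreceptor for Wnt proteins, affects neutrophils. Primary neutrophils of C57BL/6N mice aged 10 weeks gave 6 libraries. The 3 WT libraries have the genotype WT, with no floxed allele and no Cre named. The study used WT littermates as controls in other experiments and also lists wild-type mice bought from a supplier, and the sources used here do not say which gave these libraries. The 3 LRP5-KO libraries have the genotype LRP5f/f/Lyz2Cre+, in which Cre, expressed from the myeloid gene Lyz2, is meant to delete the floxed Lrp5 alleles in myeloid cells. As labelled, the floxed alleles and the Cre cannot be told apart between these groups. The sources used here do not say whether a library came from 1 mouse or from a pool, so p-values measure only the spread between these libraries.

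Collagen chains are modified before they fold into a triple helix. Prolyl 4-hydroxylase, a tetramer of catalytic alpha subunits and the protein disulfide isomerase P4hb, makes the hydroxyproline that keeps the helix stable at body temperature. Lysyl hydroxylases act on lysine, galactose is then added to some hydroxylysines by COLGALT enzymes, and glucose can follow. The same reactions occur on proteins other than collagens that carry a collagen-like domain, among them complement C1q, ficolins and adiponectin. Neutrophils are not known as a main source of fibrillar collagen.

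The libraries held between 249841492 and 340580330 reads. Lrp5 itself was at 1.12, 1.31 and 1.42 TPM in WT replicates 1 to 3 and at 1.68, 1.77 and 2.07 TPM in LRP5-KO replicates 1 to 3. The targeted transcript was thus not lower in the libraries labelled LRP5-KO (log2 fold change 0.31, adjusted p = 0.136 from limma), and every direction given here rests on the labels. Lyz2, the gene into which the Cre was inserted, was lower in them (25963 ± 1039 against 13792 ± 375 TPM, SD, n = 3; log2 fold change -0.91, adjusted p = 0.0035 from limma). WT replicate 3 stood apart from the other WT libraries in its share of ribosomal reads, 3.30% against 1.2% and 1.30%, and was close to the LRP5-KO libraries, at 2.69% to 2.98%. Across genes, a library's deviation from the overall mean also ran with GC content. The Spearman coefficient of this relation was -0.611 for WT replicate 1, -0.433 for WT replicate 2, 0.373 for WT replicate 3 and between 0.331 and 0.437 for LRP5-KO. Results that rest on WT replicate 3 are therefore also given without it.

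Colgalt1, which transfers galactose from UDP-galactose to hydroxylysine in the ER, was 2.24 times as high in LRP5-KO neutrophils as in WT neutrophils. It lies on chromosome 8 from 74134923 to 74148808 on the plus strand of NCBIM37 (mm9). Its levels were 4.19, 4.11 and 4.56 TPM in WT replicates 1 to 3 and 9.47, 9.38 and 9.91 TPM in LRP5-KO replicates 1 to 3. Every LRP5-KO library was above every WT library, and within each group the libraries lay close together (4.28 ± 0.24 TPM in WT and 9.59 ± 0.28 TPM in LRP5-KO, SD, n = 3). On the scale of log2(TPM + 1) the difference was 1.0. The WT library with the highest level was WT replicate 3, whose ribosomal share of reads was the highest of all. Set against that library alone, the log2 difference of the LRP5-KO libraries was 0.93, and without it the difference was 1.04. Among the 9775 genes tested, 15 had a larger fitted rise. The level of Colgalt1 was above that of 28.4% of the genes tested in WT and of 45.4% in LRP5-KO. Its only paralog in the set, Colgalt2, a galactosyltransferase with the same activity, was listed at 0 in all 6 libraries.

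**Figure D1:**
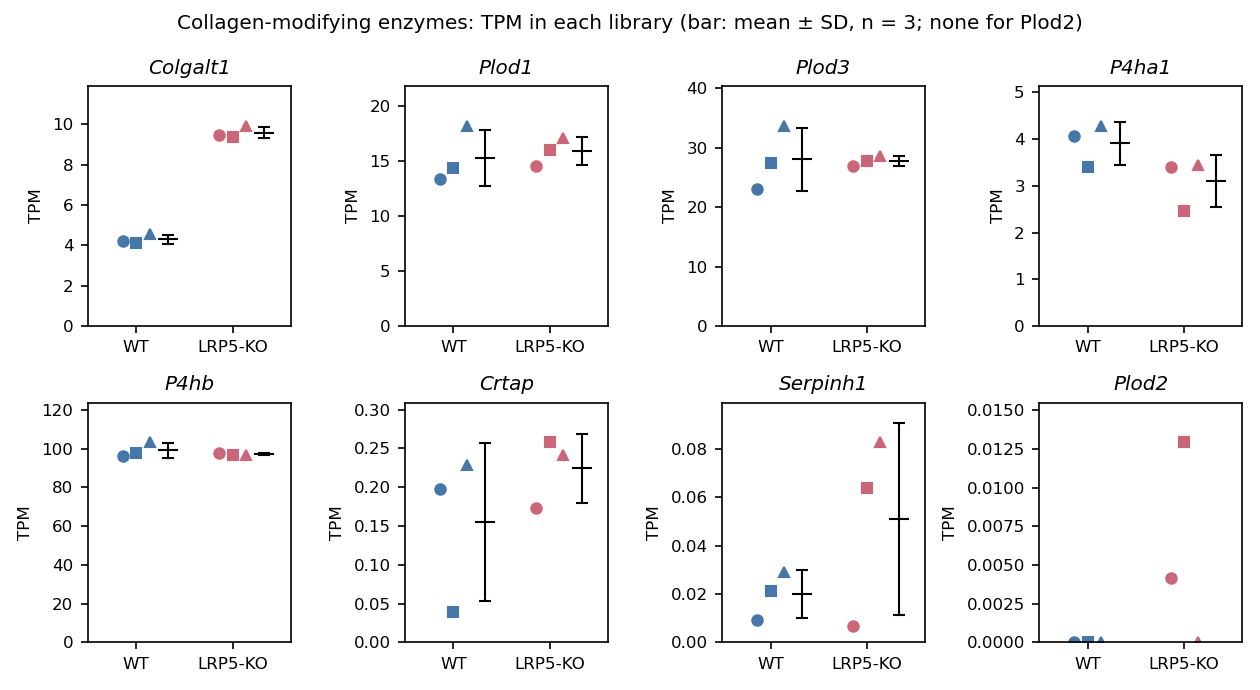
TPM (y axis, linear from 0) of 8 members in each of the 3 WT (blue) and 3 LRP5-KO (red) libraries, with circles, squares and triangles for replicates 1, 2 and 3 and bars for the mean ± SD. Colgalt1 is at 4.11 to 4.56 TPM in WT and 9.38 to 9.91 TPM in LRP5-KO, while the groups of every other member overlap. Colgalt2 and P4ha2, listed at 0 in every library, are not drawn, and Plod2 has no bars.

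RefSeq promoters of GRCm38.p6, taken as the 250 bases before an annotated transcript start, were available for 8 of the 10 members. The window of the first Colgalt1 start is printed because this member differed between the groups, and that of P4ha1 because it had the smallest p of the 4 other members tested. Capitals mark ACGTG, the core of the hypoxia response element, or CTTTG, the core of TCF/LEF sites, searched on both strands. The cores were chosen because hydroxylase genes are known targets of hypoxia and LRP5 is known as a coreceptor for Wnt proteins. In neutrophils, however, the study found that loss of LRP5 hardly changed the rise of beta-catenin, a protein of the Wnt pathway, after a Wnt stimulus. The Colgalt1 window is chr8:71610774-71611023 and that of P4ha1 is chr10:59323046-59323295, both on the plus strand.
Colgalt1: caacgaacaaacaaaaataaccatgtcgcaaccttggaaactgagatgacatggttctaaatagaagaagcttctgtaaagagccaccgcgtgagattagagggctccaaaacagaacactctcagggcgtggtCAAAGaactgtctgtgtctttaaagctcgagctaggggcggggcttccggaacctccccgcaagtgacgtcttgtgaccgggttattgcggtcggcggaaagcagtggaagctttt
P4ha1: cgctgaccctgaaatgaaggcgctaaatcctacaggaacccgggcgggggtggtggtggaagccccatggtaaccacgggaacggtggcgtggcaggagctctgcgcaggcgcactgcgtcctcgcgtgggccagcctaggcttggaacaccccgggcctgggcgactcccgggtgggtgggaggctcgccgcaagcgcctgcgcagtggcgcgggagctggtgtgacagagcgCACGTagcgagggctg
The Colgalt1 window held 14 CpG dinucleotides, 1 CTTTG core and 1 GGGCGG, the core of Sp1 sites, and it held no ACGTG. A second annotated Colgalt1 start has an overlapping window, with 20 CpG dinucleotides, no CTTTG and no ACGTG. Each of these windows matched NCBIM37 exactly once, and the first ended at the base before the annotated gene start. The P4ha1 window, with a GC content of 69.6%, held 24 CpG dinucleotides, no CTTTG and 1 ACGTG. The latter was also found once each in the windows of P4ha2, P4hb, Plod3 and Serpinh1, and not in those of Plod1 and Crtap. The TCF/LEF core was also found in the windows of Plod3, Crtap and Serpinh1, and not in those of P4ha2, P4hb and Plod1. The Sp1 core was also found in the second Colgalt1 window and in those of P4ha1, P4ha2, P4hb, Plod1 and Serpinh1. The windows of Plod3 and Crtap held no Sp1 core. Over 32851 promoter windows of this length, 16.6% held ACGTG, 48.6% CTTTG and 32.7% GGGCGG. Their median GC content was 52.4% and their median number of CpG dinucleotides was 6, beside 10 to 25 in the windows of the members. ACGTG itself holds a CpG, so its share over all windows is no matched reference for these windows. A match gives the letters only and is no evidence of binding.

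Of the 4 other members tested, none passed an adjusted p of 0.05 in limma, against 0.532% of all genes tested (52 of 9775, with 0.266% called higher and 0.266% called lower), and none had an unadjusted p under 0.05, against 23.5%. None of these 4 had groups without overlap, against 29.7% of all genes tested. DESeq2 could not be used on TPM, so no count model stands beside these counts. Under 18 alternative settings of the limma fit the number also stayed at 0. In most settings so few of all genes were called that 0 of 4 carries little weight. The lowest adjusted p of the 4 members in any alternative was 0.164 (limma).

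Lysyl hydroxylation was represented by Plod1 and Plod3. Plod3 is a multifunctional enzyme that hydroxylates lysine and also has glycosyltransferase activity, so that it can add glucose after galactose. Its levels were 23.1, 27.5 and 33.7 TPM in WT replicates 1 to 3 and 26.9, 27.8 and 28.7 TPM in LRP5-KO replicates 1 to 3. The LRP5-KO libraries lay within the WT range, and the fitted log2 difference was 0.00066 (standard error 0.13, 95% interval -0.30 to 0.30, adjusted p = 0.998 from limma). Plod3 lies on chromosome 5 from 137462889 to 137472518, on the plus strand of NCBIM37. Plod1, the lysyl hydroxylase whose loss in humans causes the kyphoscoliotic form of Ehlers-Danlos syndrome, was at 13.4, 14.4 and 18.2 TPM in WT and 14.6, 16.0 and 17.1 TPM in LRP5-KO. Again the groups overlapped, with a fitted log2 difference of 0.06 (standard error 0.12, 95% interval -0.22 to 0.35, adjusted p = 0.790 from limma). Plod1 lies on chromosome 4 from 147283862 to 147310876, minus strand. These intervals leave room for changes of up to 0.30 for Plod3 and 0.35 for Plod1 on the log2 scale.

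In both genes WT replicate 3, with the highest ribosomal share of reads, was the highest of all libraries, and WT replicate 1, with the lowest, was the lowest. The GC content of the longest coding transcript was 57.8% for Plod3, above a median of 49.98% over the genes tested, and 10.2% of these had a higher one. For Plod1 it was 56.3% and for Colgalt1 54.5%. The overlap of Plod1 came from WT replicate 3, as the other WT libraries, at 13.4 and 14.4 TPM, lay below every LRP5-KO library. Without WT replicate 3 the log2 difference was 0.18 for Plod1 and 0.14 for Plod3 (adjusted p = 0.168 and 0.298 from limma). With the ribosomal share as a covariate, the log2 difference was -0.12 for Plod1 and -0.19 for Plod3, and against WT replicate 3 alone it was -0.18 and -0.27. Neither gene has a stable direction, and the part of library composition in these values was not tested further.

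**Figure D2:**
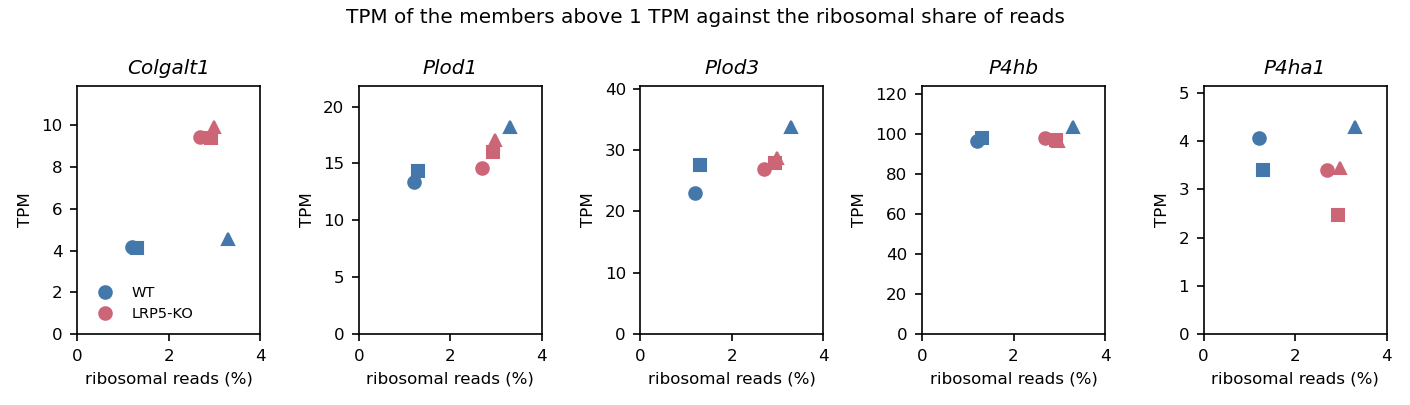
TPM (y axes, linear from 0) of the 5 members above 1 TPM against the percentage of reads assigned to ribosomal RNA (x axis) in the 3 WT (blue) and 3 LRP5-KO (red) libraries, with circles, squares and triangles for replicates 1, 2 and 3. WT replicate 3, at 3.30% ribosomal reads, has the highest Plod1 and Plod3 levels of all libraries and the highest Colgalt1 level of the WT libraries, 4.56 TPM.

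The balance between the lysyl hydroxylases was compared within each library, which takes out the scaling. Plod1 made up 36.7%, 34.3% and 35.1% of the summed TPM of the Plod genes in the 3 WT libraries and 35.2%, 36.6% and 37.4% in the 3 LRP5-KO libraries, in the order of their replicate numbers. The groups overlapped (35.4 ± 1.2% against 36.4 ± 1.10%, SD, n = 3; exact permutation test, two-sided, p = 0.3, where 0.1 is the smallest p that 3 libraries against 3 allow). Plod3 made up nearly all of the rest, at 64.6 ± 1.2% in WT and 63.6 ± 1.10% in LRP5-KO (SD, n = 3; exact permutation test, two-sided, p = 0.3). Since Plod2 was at or near 0, the Plod3 share mirrors that of Plod1 and is no separate result. The summed Plod level was 43.4 ± 7.83 TPM in WT and 43.7 ± 2.17 TPM in LRP5-KO (SD, n = 3; exact permutation test, two-sided, p = 1). Plod2, which hydroxylates the telopeptides of fibrillar collagen and is known from fibroblasts, was listed at 0 in every WT library and in LRP5-KO replicate 3, and at 0.0042 and 0.0129 TPM in LRP5-KO replicates 1 and 2. The galactosyltransferase step was set against the hydroxylase with the highest level by the ratio of Plod3 to Colgalt1. This ratio was 5.51, 6.69 and 7.38 in WT and 2.84, 2.96 and 2.89 in LRP5-KO, and because it holds Colgalt1 it was not tested.

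Prolyl 4-hydroxylation was represented by P4ha1 and P4hb. P4ha1, the main catalytic alpha subunit in most cells, was at 4.06, 3.40 and 4.28 TPM in WT replicates 1 to 3 and 3.40, 2.46 and 3.44 TPM in LRP5-KO replicates 1 to 3. Its mean was 0.792 times as high in LRP5-KO, but WT replicate 2 was below LRP5-KO replicates 1 and 3, so the groups overlapped (3.91 ± 0.46 against 3.10 ± 0.56 TPM, SD, n = 3). The log2 difference was -0.27 (standard error 0.13, 95% interval -0.56 to 0.03, adjusted p = 0.245 from limma). It was negative in each of the 17 alternative fits in which P4ha1 was tested, from -0.38 to -0.15, and passed the threshold in none of them. P4ha1 lies on chromosome 10 from 58786044 to 58836052, on the plus strand of NCBIM37. P4ha2, the other alpha subunit in the set, was listed at 0 in all 6 libraries.

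P4hb had the highest level of all members. It serves as the beta subunit of prolyl 4-hydroxylase and, beyond this enzyme, as protein disulfide isomerase for many secretory proteins. Its levels were 96.2, 97.8 and 103 TPM in WT replicates 1 to 3 and 97.7, 96.9 and 96.5 TPM in LRP5-KO replicates 1 to 3. The groups overlapped and the interval of the log2 difference was narrower than those of Plod1, Plod3 and P4ha1 (-0.03, standard error 0.062, 95% interval -0.17 to 0.12, adjusted p = 0.809 from limma). P4hb lies on chromosome 11 from 120421612 to 120434567, minus strand. Within a library, P4hb was 23.7, 28.8 and 24.1 times as high as P4ha1 in WT and 28.7, 39.5 and 28.0 times as high in LRP5-KO. The ranges overlapped (25.5 ± 2.84 against 32.1 ± 6.4, SD, n = 3; exact permutation test, two-sided, p = 0.3).

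**Figure D3:**
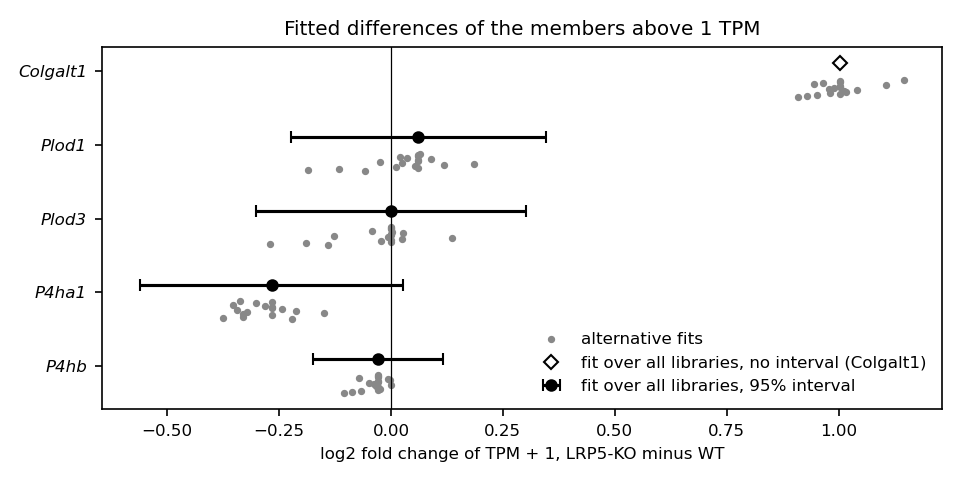
Fitted log2 fold change of TPM + 1 (x axis, LRP5-KO minus WT) of the 5 members tested, with the fit over all 6 libraries in black (its 95% interval as a bar) and the alternative fits in grey. Colgalt1 is given as a description with no interval (open diamond, 1.0), and the intervals of Plod1, Plod3, P4ha1 and P4hb include 0.

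The chaperone and the cofactor were near the bottom of the scale. Serpinh1, also called HSP47, which binds folded procollagen in the ER, was at 0.0094, 0.0213 and 0.029 TPM in WT replicates 1 to 3 and 0.0067, 0.0637 and 0.0826 TPM in LRP5-KO replicates 1 to 3. Crtap, which forms a complex with prolyl 3-hydroxylase 1 and cyclophilin B, was at 0.197, 0.0386 and 0.228 TPM in WT and 0.174, 0.258 and 0.242 TPM in LRP5-KO. The groups overlapped in both genes, and neither was tested. Because TPM holds no counts, the counting error of such low values is not known.

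The order of the levels was the same in both groups for the members above 1 TPM. In WT it ran from P4hb over Plod3 and Plod1 to Colgalt1 and P4ha1, of which the last pair did not differ beyond the spread (4.11 to 4.56 against 3.40 to 4.28 TPM). In LRP5-KO, Colgalt1 and P4ha1 were apart, at 9.38 to 9.91 against 2.46 to 3.44 TPM, and Colgalt1 was still below Plod1, at 14.6 to 17.1 TPM. Crtap and Serpinh1 followed in both groups, and in LRP5-KO the ranges of Serpinh1 and Plod2 overlapped.

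The genes beside Colgalt1 on chromosome 8 were compared in the same fit, to see whether its difference extended along the chromosome. Fam129c lies upstream on the same strand, 3087 bases away, and was at 0.71, 1.21 and 0.79 TPM in WT and 1.22, 1.15 and 1.17 TPM in LRP5-KO. Its groups overlapped (log2 fold change 0.21, adjusted p = 0.30 from limma). Pgls, an enzyme of the pentose phosphate pathway, was at 22.7 ± 3.68 TPM in WT and 26.4 ± 1.11 TPM in LRP5-KO (SD, n = 3; log2 fold change 0.22, adjusted p = 0.295 from limma). Jak3, a kinase of cytokine receptors on the other side of Colgalt1, was at 5.54 ± 1.29 and 6.17 ± 0.24 TPM (SD, n = 3; log2 fold change 0.15, adjusted p = 0.530 from limma). Unc13a, which runs towards Colgalt1 on the opposite strand, was listed at 0 in WT and at no more than 0.0122 TPM in LRP5-KO, and the fatty acid transporter Slc27a1 stayed under the filter in both groups. Of the neighbours tested, none passed the threshold, where 0.532% of all genes tested did, and their groups overlapped. The overlap of Jak3 came from WT replicate 3, at 6.94 TPM. WT replicates 1 and 2, at 4.42 and 5.25 TPM, lay below every LRP5-KO library, at 5.90 to 6.36 TPM. Without WT replicate 3 the log2 fold changes were 0.30 for Jak3, 0.27 for Pgls and 0.17 for Fam129c (adjusted p = 0.060, 0.185 and 0.356 from limma).

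**Figure D4:**
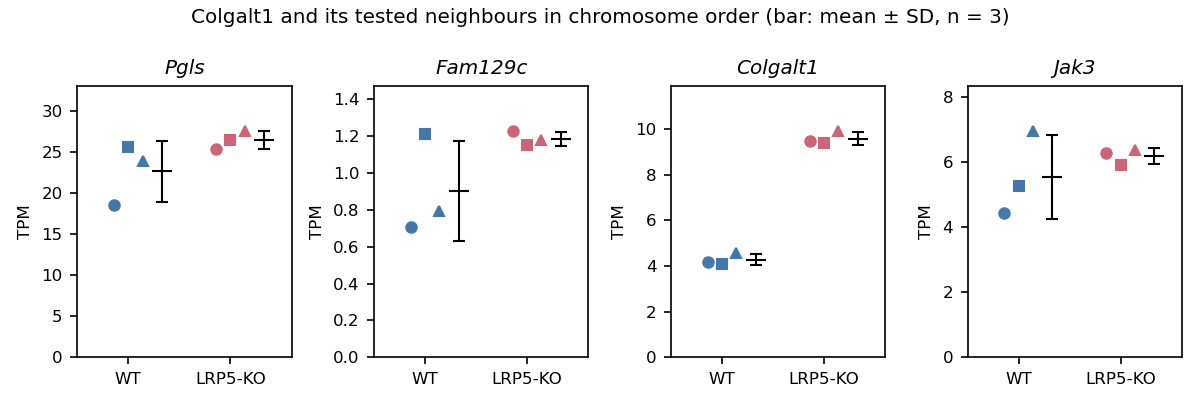
TPM (y axes, linear from 0) of Colgalt1 and the tested genes among its 3 nearest neighbours on either side, in chromosome order, in the 3 WT (blue) and 3 LRP5-KO (red) libraries with the mean ± SD. The groups of Pgls, Fam129c and Jak3 overlap, and those of Colgalt1 do not.

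The genes whose log2(TPM + 1) ran most closely with Colgalt1 over the 6 libraries were Polr2g, a subunit of RNA polymerase II (Pearson r = 0.997), Acot13, a thioesterase for acyl-CoA (0.994), Gm38377 (0.994), Mrps18a, a protein of the mitochondrial ribosome (0.993), and Klf10, a zinc finger transcription factor (0.992). These correlations describe 6 libraries in 2 groups, and 194 genes had an r above 0.95. Polr2g, at 34.2 to 35.0 TPM in WT and 42.9 to 44.1 TPM in LRP5-KO, and Acot13, at 9.76 to 10.3 and 13.7 to 14.7 TPM, differed by less than Colgalt1, with log2 fold changes of 0.32 and 0.45. For P4ha1 the closest were Gm22890 (0.981), Brox (0.979), Gm43661 (0.970), Nras (0.962) and Rnf6 (0.957), and 6 genes had an r above 0.95.

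The wider machinery around these enzymes was described by 7 lists, with no test of a list. Of 30 partners of collagen processing, such as other hydroxylases, lysyl oxidases and folding factors, 8 were tested, 3 with a fitted rise and 5 with a fitted fall, and none was called in limma, with 2 at an unadjusted p under 0.05. Ppib, the cyclophilin B partner of Crtap, was at 158 to 168 TPM in WT and 175 to 178 TPM in LRP5-KO (log2 fold change 0.12, adjusted p = 0.282 from limma), and Hsp90b1 was at 77.5 to 92.3 and 58.1 to 66.1 TPM (log2 fold change -0.40, adjusted p = 0.0907 from limma). The groups of both genes did not overlap, while those of Hspa5 did, at 120 to 231 and 118 to 205 TPM. Of the 8 genes 1 was higher and 2 were lower without overlap, where 17.4% and 12.3% of all genes tested were. Lox, Loxl1, Loxl4, P3h4 and P4ha3 were listed at 0. The median log2 fold change of the 8 genes was -0.04, beside 0.04 over all genes tested.

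Substrates were scarce among collagens. Of 41 collagen chains, 3 were tested and 13 were listed at 0 in every library, and the chains summed to 5.52 to 7.81 TPM in WT and 7.76 to 8.65 TPM in LRP5-KO. Col11a2 was at 1.44 to 2.11 and 2.24 to 2.90 TPM (log2 fold change 0.38, adjusted p = 0.139 from limma), while Col5a1, at 1.71 to 2.46 and 2.05 to 2.20 TPM, and Col1a1, at 0.785 to 1.26 and 0.909 to 1.21 TPM, overlapped between the groups. None was called (1 at an unadjusted p under 0.05), and the median of the 3, 0.07, was -0.04 under quantile scaling and -0.16 with GC and length trends removed. Other proteins with a collagen-like domain were more abundant. Of 24 such genes 6 were tested, and their levels summed over the list were 149 to 159 TPM in WT and 179 to 184 TPM in LRP5-KO. Most of this was Fcnb, a ficolin of myeloid cells, at 119 to 129 and 142 to 144 TPM (log2 fold change 0.20, adjusted p = 0.137 from limma). C1qtnf12, at 12.6 to 22.5 and 22.3 to 24.0 TPM, overlapped, and C1qa, a chain of complement C1q, was at 3.52 to 3.95 and 4.25 to 4.79 TPM (log2 fold change 0.24, adjusted p = 0.160 from limma). All 6 had a fitted rise and 5 of them had groups without overlap, where 17.4% of all genes tested were higher without overlap. None was called, and 5 had an unadjusted p under 0.05. Their median was 0.29, and it was between 0.18 and 0.36 under the other scalings, with the trends removed, without WT replicate 3 and against it alone. Fcnb is also in the list of immature neutrophil markers and C1qa in that of macrophages, given at the end.

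Enzymes of the same families and compartments held no called gene in the fit over all libraries. Of 25 other 2-oxoglutarate dioxygenases, the family of the hydroxylases, 21 were tested, with 18 fitted rises, 3 falls, no call and 3 genes at an unadjusted p under 0.05 (median 0.08, -0.01 against WT replicate 3 alone). Its most abundant genes, Phyh, Kdm6b and Kdm2a, overlapped between the groups. Of 26 hypoxia-induced genes 23 were tested, with 9 fitted rises, 14 falls, no call and 4 genes at an unadjusted p under 0.05. Aldoa, a glycolytic enzyme, was at 691 to 840 TPM in WT and 637 to 683 TPM in LRP5-KO (adjusted p = 0.218 from limma), while Ldha and Pgk1 overlapped. The median of this list was -0.01, beside 0.04 over all genes tested. It was -0.06 with median-ratio scaling, -0.05 with GC and length trends removed and -0.10 against WT replicate 3 alone. With TPM rescaled without mitochondrially encoded and the most abundant genes it was 0.01, beside 0.07 over all genes. Without WT replicate 3 it was 0.02, also beside 0.07. Lower without overlap were 6 of the 23, where 12.3% of all genes tested were, and none was higher without overlap. Of 26 other glycosyltransferases of the ER and Golgi 17 were tested, with 11 fitted rises, 6 falls, no call and 5 genes at an unadjusted p under 0.05 (median 0.06). Ogt was at 99.7 to 106 and 108 to 115 TPM, and B3gat3 at 29.4 to 31.0 and 34.3 to 35.7 TPM, with no overlap in either gene, while B4galt1 overlapped. Of the 17 glycosyltransferases 7 were higher without overlap, where 17.4% of all genes tested were, and 1 was lower, where 12.3% were.

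ER folding and disulfide enzymes, to which P4hb also belongs, had 25 of 30 genes tested. Of these 6 had a fitted rise and 19 a fitted fall, and 12 were lower without overlap, where 12.3% of all genes tested were. None was called, and 10 had an unadjusted p under 0.05. Their median log2 fold change was -0.11 and stayed between -0.17 and -0.09 under the other scalings and composition settings. P4hb, at -0.03, was nearer to 0 than this median. Summed over the list, levels were 1258 to 1500 TPM in WT and 1167 to 1237 TPM in LRP5-KO. Dnajb9, an ER cochaperone, was at 194, 144 and 102 TPM in WT replicates 1 to 3 and 120, 104 and 104 TPM in LRP5-KO replicates 1 to 3, so that its groups overlapped. Without WT replicate 3, 9 of the 25 were called, where 19.6% of all genes tested were, and the 4 other members of the set that were tested were not called. The number called without this library was 2 of 8 partners of collagen processing, 1 of 3 collagen chains, 3 of 6 proteins with a collagen-like domain, 5 of 21 dioxygenases, 3 of 23 hypoxia-induced genes and 3 of 17 glycosyltransferases. Under the other scalings at most 1 gene was called in any of the 7 lists. With GC and length trends removed, where 389 of 8769 genes were called in all, 4 ER folding genes, 2 hypoxia-induced genes and 1 gene each of the partners, the proteins with a collagen-like domain and the dioxygenases were called.

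**Figure D5:**
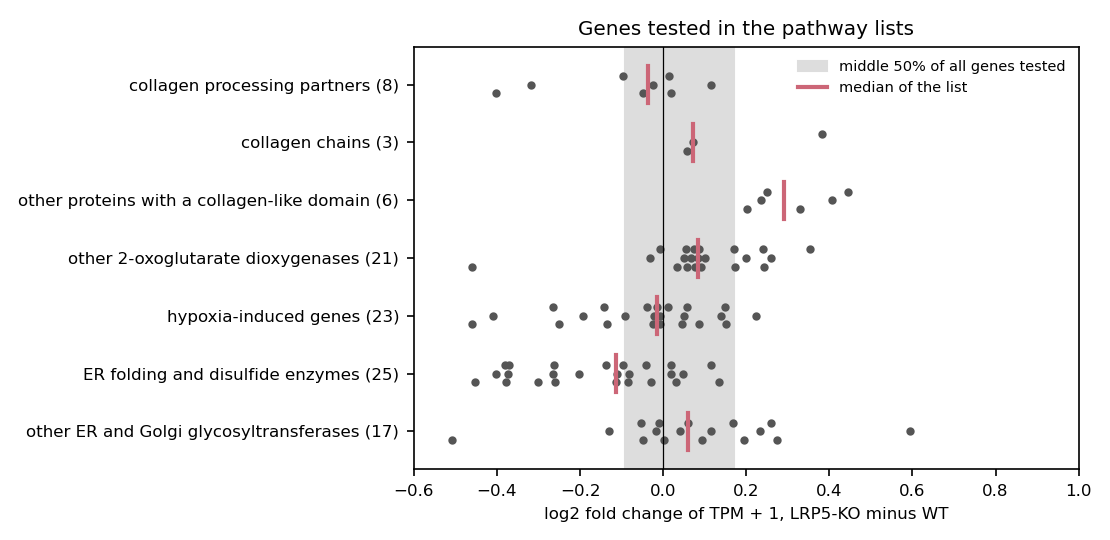
Fitted log2 fold change of TPM + 1 (x axis, LRP5-KO minus WT) of each gene tested in the 7 pathway lists, with the number tested in brackets, the median of each list in red and the middle 50% of all 9775 genes tested in grey. The 6 proteins with a collagen-like domain lie to the right of 0 with a median of 0.29, and the ER folding list has a median of -0.11.

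Markers of other cells were read beside these values, since fewer cells of a type and less RNA per cell cannot be told apart in bulk RNA. The neutrophil markers were among the highest genes, S100a9 at 195190 to 204170 TPM in WT and 221870 to 230640 TPM in LRP5-KO, S100a8 and Ngp overlapping, and none of the 10 was called in limma (2 at an unadjusted p under 0.05, and 4 called without WT replicate 3). Of 12 immature neutrophil markers tested 11 had a fitted rise and 8 were higher without overlap, where 17.4% of all genes tested were. Their median was 0.22 with no call, and 6 had an unadjusted p under 0.05, beside 23.5% of all genes. Camp was among the 8 (12832 to 14306 against 16896 to 18244 TPM, adjusted p = 0.0648 from limma), while Ltf overlapped. Ngp, the most abundant gene of this list, was its only fitted fall and overlapped (log2 fold change -0.14). Summed over the list, levels overlapped, at 62835 to 67808 TPM in WT and 64639 to 67585 TPM in LRP5-KO. Of 13 mature neutrophil markers 8 had a fitted fall and 5 were lower without overlap, where 12.3% of all genes tested were (median -0.11, no call, 4 at an unadjusted p under 0.05), among them Mmp8 (3646 to 4124 against 2702 to 3022 TPM, adjusted p = 0.0648 from limma), while Retnlg and Mmp9 overlapped. Without WT replicate 3 the medians were 0.25 and -0.0082, with 1 immature and 4 mature markers called, where 19.6% of all genes tested were. The markers without overlap differed between the same libraries as Colgalt1, and their part in its difference was not tested.

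Cells known for collagen synthesis were hardly represented. The 11 markers of fibroblasts and marrow stroma summed to 1.15 to 1.61 TPM in WT and 1.33 to 1.74 TPM in LRP5-KO, most of it Col1a1, with Cxcl12 at no more than 0.355 TPM, Bgn at no more than 0.129 TPM and Dcn listed at 0 in every library. Of the 8 osteoblast markers Bglap, Bglap2 and Dmp1 were at 0, Ibsp and Alpl reached at most 0.0726 and 0.0283 TPM and Runx2, which blood cells also express, was at 11.9 to 14.0 and 12.5 to 14.4 TPM. Of the 8 endothelial markers Emcn and Tek were at 0, Vwf and Eng reached at most 0.296 and 0.158 TPM, and the sum of 3.21 to 3.46 TPM in WT and 3.68 to 4.14 TPM in LRP5-KO was mostly Pecam1, which is also found on leukocytes. The part of these cells in the Colgalt1 difference was not tested.

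Markers of other blood cells were also measured. Summed levels in WT and LRP5-KO were 574 to 735 and 648 to 702 TPM for macrophages and monocytes, mostly Ly6c2 with Csf1r and Adgre1 far below it, and 3.86 to 5.47 and 5.94 to 6.80 TPM for megakaryocytes and platelets, led by Gp9, Pf4 and Gp1bb. They were 16.9 to 21.5 and 20.6 to 21.1 TPM for B and plasma cells, led by Jchain, Cd79b and Cd79a, and 48.0 to 56.9 and 42.1 to 53.9 TPM for erythroid cells, led by Hbb-bs, Hba-a1 and Hbb-bt. For T and NK cells they were 11.7 to 13.4 and 15.9 to 17.4 TPM, led by Cd3d, Nkg7 and Cd3g. Of 8 macrophage and monocyte markers tested 6 had a fitted rise and 2 a fitted fall. Among the 8, 4 were higher without overlap, where 17.4% of all genes tested were, and none was lower without overlap. Their median was 0.20, beside 0.04 over all genes tested, and it was 0.03 against WT replicate 3 alone. Adgre1, 1 of these 4, was at 10.3 to 12.6 and 14.4 to 15.6 TPM (log2 fold change 0.36, adjusted p = 0.103 from limma). None of the genes tested in the lists of these blood cells was called in limma. At an unadjusted p under 0.05 were 4 of 8 macrophage, 1 of 2 megakaryocyte and 1 of 4 erythroid genes tested. The same held for 1 of 2 T and NK cell genes and none of 5 B cell genes, beside 23.5% of all genes. Without WT replicate 3, 3 of 8 macrophage, 1 of 2 megakaryocyte and 1 of 2 T and NK cell genes were called. No erythroid or B cell gene was called without it, beside 19.6% of all genes tested. In the list of eosinophils, basophils and mast cells, with 15.7 to 19.6 and 20.4 to 22.2 TPM, Siglecf overlapped, Kit was higher without overlap and Prg2, the major basic protein of eosinophil granules, was called (0.85, 1.16 and 1.05 against 2.91, 2.34 and 3.13 TPM, log2 fold change 0.91, adjusted p = 0.0341 from limma). This call was lost without WT replicate 1 or 2 or LRP5-KO replicate 1 or 3, with log2 fold changes of 0.84, 0.95, 0.88 and 0.84. Under the other scalings at most 1 gene of any marker list was called, and with the trends removed at most 2. The part of these blood cells in the Colgalt1 difference was not tested either.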

How the data were processed

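RNA of 6 libraries was analysed from the deposited table of TPM values, which the authors had corrected for gene length and set to a total of 1000000 per library over 52636 genes. The methods name alignment to mm9 and the DESeq2 pipeline, the tool that gave TPM is not given in the sources used here, and the gene identifiers stem from an annotation made after mm9. The labels name a Percoll gradient and an mRNA kit, whereas the methods describe single-end reads from a total RNA kit that keeps the strand, made from cells sorted for CD11b and Ly6G, and the deposited read summary lists reads of 94 bases. From that summary, the authors' counts of reads per library and percent of ribosomal and intronic reads were used. It also holds a ratio for coverage bias at transcript ends and a coverage variation score, which the authors deposited and which were not used here.

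The members and all lists were chosen with earlier results of these data known. The 9775 genes that averaged 1 TPM or more were fitted on log2(TPM + 1) with limma 3.58.1 (R 4.3.3), a scale that understates changes of low genes, with a mean-variance trend, 3 WT against 3 LRP5-KO libraries and no covariate, and Benjamini-Hochberg adjustment over all genes tested. A gene was called at an adjusted p under 0.05. Since TPM holds no counts, the count test of the methods was replaced by limma, and the precision of single values is known only from the spread between libraries. The fit was tested on simulated data. Ratios within a library were compared by exact permutation tests (scipy 1.17.1). Named were all members, Lrp5 and Lyz2, in each list the 3 genes with the highest mean TPM and those called, the 5 genes most correlated with Colgalt1 and with P4ha1, and the 3 neighbours of Colgalt1 on either side. Gm9933, one of the neighbours, was not analysed here. Coordinates, length and GC content (known for 89.7% of genes tested) are those of GENCODE M1 on NCBIM37, and promoter sequences those of RefSeq on GRCm38.p6. Alternatives were another pseudocount (0.1), filter (genes above 0 in any library, or at least 5 TPM), scaling or variance model, the omission of each library, a block for the replicate number, the ribosomal share as a covariate, WT replicate 3 as the only WT library, and removal of GC and length trends.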

Additional observations from a re-analysis of the deposited data

Results flagged for a closer look

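The share of reads in introns, a column of the read summary that no comparison of the collagen-modifying enzymes used, was higher in every LRP5-KO library than in every WT library. It was 8.60%, 7.78% and 9.0% in the 3 WT libraries, by replicate number, and 10.95%, 11.23% and 10.62% in the 3 LRP5-KO libraries (8.46 ± 0.622% against 10.9 ± 0.305%, SD, n = 3; two-sided p = 0.1 in an exact permutation test, which is as low as 3 libraries against 3 can go). Its part in the levels of Colgalt1 and the other enzymes was not tested. Groups of 3 libraries are too small for the outlier test applied to larger groups, so it was not run.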

How the results depend on the processing

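Colgalt1 was higher in LRP5-KO in each of 18 alternatives, which adds no evidence, because the set was chosen on this rise. Its log2 difference was 1.15 with a pseudocount of 0.1 and 1.11 with TPM rescaled without mitochondrially encoded and the 20 most abundant genes. It was 0.94 with quantile scaling, 0.93 against WT replicate 3 alone, 0.91 with GC and length trends removed, and 0.98 to 1.04 with each library left out. No other member was called in any of the 18 alternatives. The directions of Plod1, Plod3 and P4hb did not hold. With each library left out, Plod1 ran from -0.025 (without WT replicate 1) to 0.18 (without WT replicate 3), and it was -0.12 with the ribosomal share as a covariate, -0.18 against WT replicate 3 alone and -0.059 with the trends removed. Plod3 was -0.042 with median-ratio scaling, 0.14 without WT replicate 3, -0.13 without WT replicate 1, -0.0059 without WT replicate 2, -0.00023 and -0.022 without LRP5-KO replicates 2 and 3, -0.19 with the covariate, -0.27 against WT replicate 3 alone and -0.14 with the trends removed. P4hb ran from -0.049 without WT replicate 1 to 0.00075 without WT replicate 3, and it was negative in the other alternatives, down to -0.11 with the trends removed. The neighbour Jak3 was 0.30 without WT replicate 3, -0.051 with the covariate, -0.15 against WT replicate 3 alone and -0.053 with the trends removed. The difference in the Plod1 share, 1.03 percentage points, was 0.51 to 1.69 with each library left out. Lrp5 was between 0.11 and 0.49 and called in no alternative, and Prg2 lost its call in 8 of 17, with adjusted p up to 0.178 (limma, without LRP5-KO replicate 1), and Lyz2 in 1 of 17 (adjusted p = 0.123 with genes above 0 in any library).

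The number of genes called among all tested, 52, was 3 with genes above 0 in any library, 29 at 5 TPM or more, 96 with rescaled TPM, 6 with the covariate, 6 against WT replicate 3 alone and 389 with the trends removed. It ran from 2 to 1920 with each library left out: 18, 3 and 1920 without WT replicates 1 to 3 and 2, 15 and 2 without LRP5-KO replicates 1 to 3. The cause was not tested, and in the comparison against WT replicate 3 the lone library is assumed to vary like the LRP5-KO group. The median-ratio, quantile, pseudocount and variance model settings gave 36 to 77. With the replicate number as a block, 4 genes were called, Colgalt1 was at 1.0 and the Plod1 share differed by 1.03 points (exact permutation test within pairs, two-sided, p = 0.5). Deviations of same-numbered libraries correlated at 0.229, -0.0075 and 0.131, so the numbers were not taken as a pairing. TPM keeps no depth, which limits what can be said of Serpinh1, Crtap, Plod2 and the genes listed at 0.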
